A study of Mus musculus with 4 samples.

Results

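The 10 genes described here encode the chaperones, proteases and DNA maintenance factors of the mitochondrial matrix and inner membrane. They are Hspd1, Hspe1, Hspa9, Lonp1, Clpp, Clpx, Afg3l2, Tfam, Polg and Ssbp1, and every probe that carries one of these names on the array was taken. The array measured 20615 named genes or transcripts well above background on at least 1 array, and these 10 are among them. Their transcripts were read in cultured primary hepatocytes of C57BL/6 mice, harvested 24 h after seeding. The label wild-type stands for the controls, which the methods give as floxed littermates that keep Drp1. The label knockout stands for Drp1LiKO, in which both floxed copies of Dnm1l, the gene of Drp1, are recombined by Cre driven by the albumin promoter, which is active mainly in hepatocytes, so that other cells of a preparation may keep the gene. Each genotype was measured untreated and with 200 μM palmitate, a saturated fatty acid, which makes 4 groups. The methods give all animals as male. According to its label, the untreated control array was deposited in a further series too. Each group has 1 array, and neither the number of animals behind an array nor the length of the palmitate treatment before these arrays is given in the sources used here.

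Most proteins of the mitochondrion are made in the cytosol and enter it unfolded. Hspa9 (mortalin) pulls them through the inner membrane and helps them fold, and Hspd1 and Hspe1, better known as HSP60 and HSP10, form the barrel and the lid of the chaperonin in which many of them take their final shape. Lonp1, the ClpXP pair Clpx and Clpp, and the m-AAA subunit Afg3l2 degrade proteins that fail to fold or are no longer needed. Tfam packs mitochondrial DNA into nucleoids and starts its transcription, Polg copies it, and Ssbp1 holds the opened strand. When unfolded protein builds up in the matrix, cells can raise the chaperone and protease genes together, a programme known as the mitochondrial unfolded protein response. Drp1 divides mitochondria, and hepatocytes are rich in them.

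None of the 10 genes differed by 2-fold or even 1.5-fold between any compared pair of arrays on its brightest probe. At 2-fold 0 of 10 lies near the background. Of all genes measured on both arrays, 7.81% passed 2-fold by genotype untreated, 5.56% by genotype with palmitate, 1.11% by palmitate in control and 2.42% by palmitate in Drp1LiKO. On the brightest probes the gene farthest from 0 was Tfam, which read 1.30-fold lower in untreated Drp1LiKO than in control hepatocytes and 1.20-fold lower with palmitate. On their brightest probes Hspd1, Hspe1 and Lonp1 differed by at most 0.16 log2 units in any comparison. Under palmitate the largest difference among the 10 was 1.14-fold in control and 1.11-fold in Drp1LiKO hepatocytes, while the cytosolic heat shock genes Hspa1a and Hspa1b rose by 3.09 to 4.80 log2 units. Since each group has 1 array, how far animals or cultures of one group vary is not known here, and no p-value was computed for a difference between a pair of arrays.

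Stretches of promoter sequence from 3 places are shown because the results below set the chaperonin pair beside an induced heat shock gene, and because Tfam carries the largest difference on the brightest probes. Hspd1 and Hspe1 lie head to head on chromosome 1 and share the DNA between their starts, which are 216 bases apart in RefSeq (GRCm38.p6). RefSeq also gives a second Hspd1 start, which lies beyond the Hspe1 start. The stretch between the divergent starts holds a run of 4 heat shock units, in which GAA and TTC alternate with 2 bases between them. The run lies from −89 to −72 of the Hspe1 start and, read on the other strand, from −144 to −127 of the divergent Hspd1 start. The window of Hspa1a, which encodes an inducible cytosolic HSP70, holds 2 such units from −104 to −97. Units were sought as exact letters, so imperfect units were not counted. The window of Tfam holds CCGGAAG, the core bound by ETS factors such as GABP, from −47 to −41. The Hspe1 line shows chr1:55088053-55088082 on the plus strand. The Hspa1a line shows chr17:34972157-34972306 and the Tfam line chr10:71238045-71238194, both on the minus strand and both ending at the base before the start. Capitals mark the heat shock units or the ETS core.
Hspe1 and Hspd1: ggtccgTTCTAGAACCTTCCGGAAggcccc
Hspa1a: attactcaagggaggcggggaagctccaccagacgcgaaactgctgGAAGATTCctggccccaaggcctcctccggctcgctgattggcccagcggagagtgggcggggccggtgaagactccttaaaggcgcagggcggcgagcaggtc
Tfam: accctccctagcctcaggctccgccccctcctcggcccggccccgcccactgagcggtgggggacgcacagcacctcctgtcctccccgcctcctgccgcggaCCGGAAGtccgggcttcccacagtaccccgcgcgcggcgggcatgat

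RefSeq windows of 300 bases, 250 before and 50 from the start on, matched 8 of the 10 genes. Of all 32851 windows, 15.1% held a pair of heat shock units (GAANNTTC or TTCNNGAA), 0.603% held 3 in a row and 8 windows (0.0244%) held 4 in a row. Hspd1 and Hspe1 share a single run, so their windows count it on both sides, and the letters of the fourth unit overlap an ETS core. The window of Clpp holds a pair of units 34 to 41 bases into the transcript. The core CCGGAAG was searched on both strands and stood in 8.86% of all windows. Windows of 6 members held it, those of Clpp, Hspd1, Hspe1, Polg, Ssbp1 and Tfam. The ATF4-CHOP letters TGATGNAA stood in 3.97% of windows and in none of the members. A match of letters is a description of the window and not of a factor at work there.

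Values below are normalized log2 intensities, where 0 is the 75th percentile of the array, so a difference of 1 is a 2-fold difference relative to the bulk of transcripts. A gene is represented by its brightest probe, and a probe counts as measured where the scanner software flags it well above background. All 10 genes were measured in this sense on all 4 arrays. They are covered by 23 probes, of which 20 were well above background on every array, 1 on a single array and 2 on none. Repeat spots of the same probe give a noise of 0.05 for a difference between a pair of arrays. Different probes of one gene differed by a median SD of 0.07 in the untreated genotype difference and 0.13 in the palmitate response of Drp1LiKO. These figures cover the array and not the animals.

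The arrays themselves were alike in depth, with 44.7% to 51.1% of probes well above background. Dnm1l, the targeted gene, read 2.42 in control, 1.07 in Drp1LiKO, 2.43 in control with palmitate and 1.01 in Drp1LiKO with palmitate, lower in both Drp1LiKO arrays. Hepatocyte markers summed to between 2079 and 2148 times the 75th percentile on the 4 arrays, with 14 or 15 of 15 well above background. Such a sum is carried by a few bright probes, here those of Serpina1a, Alb, Trf and Apoa2, so the counts of markers past 2-fold are given beside it. Of the 14 hepatocyte markers measured on both arrays, 3 were past 2-fold higher in Drp1LiKO in each condition, among them Ahsg at 1.64 and 1.76 and Tat at 1.5 and 1.22, whereas Cyp2e1 differed by −0.66 and −0.72. Of all genes measured on both arrays, 7.81% passed 2-fold by genotype untreated and 5.56% with palmitate. Markers of other liver cells were past 2-fold higher in Drp1LiKO more often than that. For macrophages these were 7 of the 11 measured on both untreated arrays and 4 of 8 with palmitate (medians 2.09 and 0.98), with a summed level over 15 markers of 32.7 and 40.6 in the control arrays and 60.4 and 60.8 in the Drp1LiKO arrays and 8 to 13 of the 15 well above background. For endothelial cells they were 5 of 8 and 4 of 6 (medians 1.44 and 1.27). The sum over 10 endothelial markers, untreated and then with palmitate, was 2.16 and 2.22 in control against 5.84 and 4.20 in Drp1LiKO. For stellate cells they were 2 of 4 in each condition (medians 1.98 and 1.61), with Dcn at 4.19 and 4.04 and Col1a2 at 3.02 and 2.44. The summed level of the 10 stellate markers, 45.2 and 46.5 against 62.6 and 59.3 in the same order, is mostly that of Acta2, which differed by 0.22 and 0.02. The 6 cholangiocyte markers had no common direction. Their sum of 60.6 and 57.1 against 41.8 and 43.6 is mostly that of Spp1, at −0.60 and −0.40, while Sox9 was higher in Drp1LiKO by 0.45 and 0.21. Among defining markers, Cd163 and Timd4 of macrophages, Des of stellate cells, and Epcam and Cftr of cholangiocytes were above background on no array, and Lrat was above background on the untreated Drp1LiKO array alone. The part of these other cells in the genotype differences was not tested, and fewer cells of a type cannot be told apart from less RNA per cell. Both untreated arrays lie on one slide and both palmitate arrays on another, so palmitate and slide cannot be told apart.

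**Figure D1:**
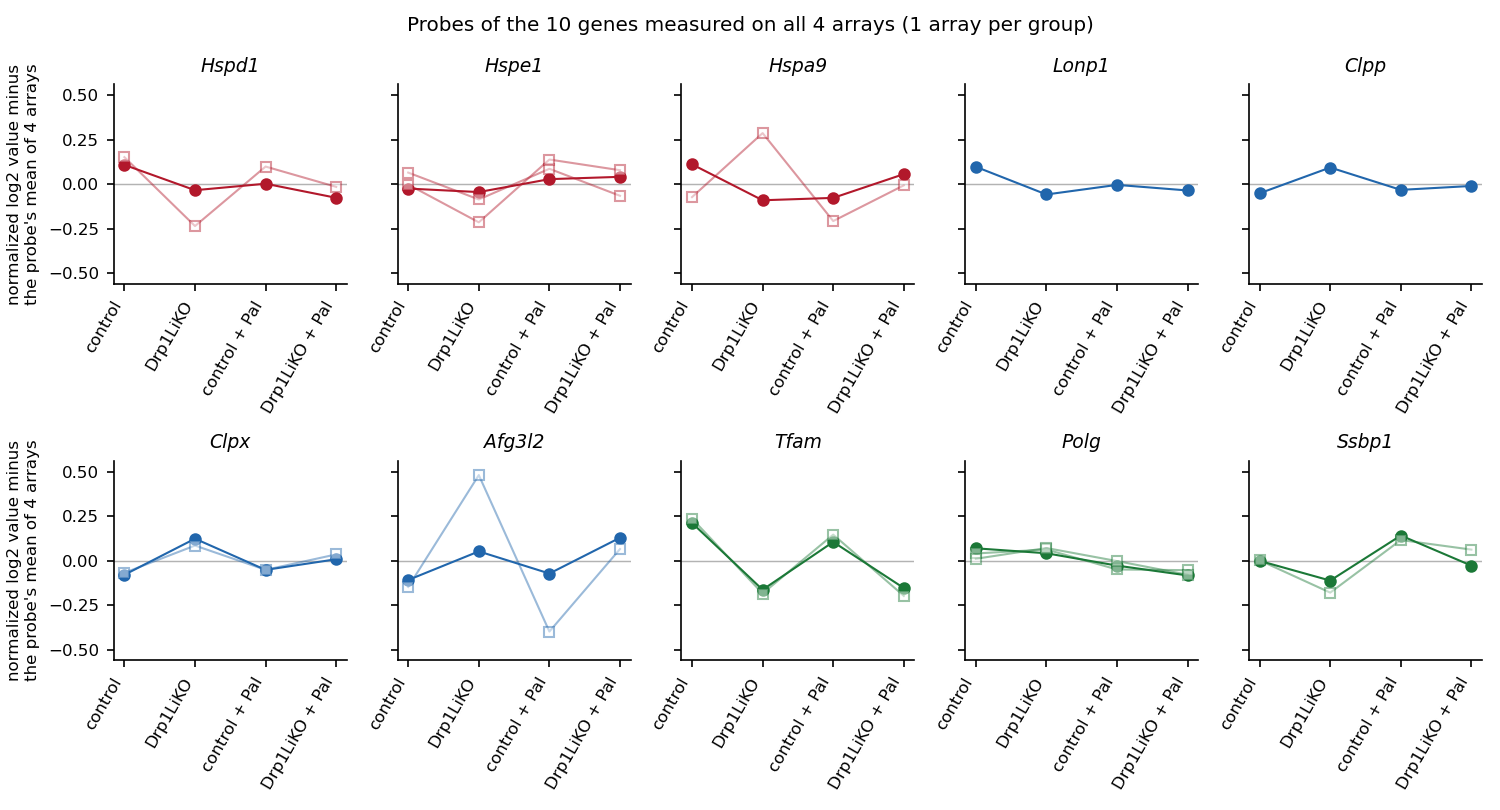
Normalized log2 value of each probe minus its own mean over the 4 arrays (y axis), for the 4 groups (x axis; Pal is 200 μM palmitate, 1 array per group, no error bars). Filled circles are the probe that represents the gene, open squares its other probes measured on all 4 arrays; red marks chaperones, blue proteases and green DNA maintenance. Both Tfam probes step down in each Drp1LiKO array, and the probes of Hspa9 part on the untreated Drp1LiKO array.

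Of the chaperones, Hspd1 read 6.52 in control, 6.37 in Drp1LiKO, 6.41 in control with palmitate and 6.33 in Drp1LiKO with palmitate. It was thus lower in Drp1LiKO by 0.14 without palmitate and by 0.08 with it, and its dimmer probe was also lower, by 0.39 and 0.11. Hspe1, its partner on the shared promoter, read 5.63, 5.61, 5.68 and 5.70 in the same order. The genotype difference of Hspe1 was −0.02 untreated and 0.01 with palmitate, within the spot noise, and its 3 probes lay between −0.21 and −0.02 untreated. With palmitate 2 of the 3 were lower in Drp1LiKO, and the range was −0.15 to 0.01, so no direction is given there. With palmitate all 3 probes of Hspe1 read higher, by 0.02 to 0.14 in control and 0.02 to 0.29 in Drp1LiKO.

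Hspa9 read 5.51 in control, 5.31 in Drp1LiKO, 5.32 in control with palmitate and 5.46 in Drp1LiKO with palmitate. By this probe it was lower in Drp1LiKO without palmitate (−0.20) and higher with it (0.13). A second probe of Hspa9, on another stretch of the transcript, read 4.47, 4.83, 4.33 and 4.54, so that it was higher in Drp1LiKO in both conditions, by 0.36 and 0.20. The probes disagree in sign for untreated cells, and no direction is given for this gene there. In control hepatocytes both probes read lower with palmitate, by −0.19 and −0.13.

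Among the proteases, Lonp1 read 6.47 in control, 6.31 in Drp1LiKO, 6.37 in control with palmitate and 6.34 in Drp1LiKO with palmitate. The control array stood highest, and the genotype difference was −0.16 untreated and −0.03 with palmitate. Clpp, the proteolytic chamber of ClpXP, read 4.10, 4.25, 4.12 and 4.15 in the same order. Clpx, the unfoldase that feeds it, read 1.5, 1.71, 1.53 and 1.59. Both parts of ClpXP were thus highest in untreated Drp1LiKO, Clpp by 0.14 and Clpx by 0.20 over control, and the second probe of Clpx gave 0.15. With palmitate the genotype difference was 0.02 for Clpp and 0.06 for Clpx.

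Afg3l2, a subunit of the inner membrane m-AAA protease, read 2.30 in control, 2.46 in Drp1LiKO, 2.33 in control with palmitate and 2.53 in Drp1LiKO with palmitate. Both Drp1LiKO arrays stood above both control arrays, by 0.16 and 0.20. A dim second probe read −2.15, −1.52, −2.40 and −1.94 and put the same differences at 0.63 and 0.46. At 0.63 this was the only one of the 20 member probes past 1.5-fold in any comparison, so the size of the Afg3l2 difference depends on the probe, while its sign does not.

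Tfam, which carries the largest difference of the 10 on their brightest probes, read 2.28 in control, 1.90 in Drp1LiKO, 2.17 in control with palmitate and 1.91 in Drp1LiKO with palmitate. Both Drp1LiKO arrays stood below both control arrays. The difference was −0.38 untreated and −0.26 with palmitate, and a second probe of Tfam gave −0.42 and −0.34. With the mean over a gene's probes Tfam and Afg3l2 differed by nearly the same size, Tfam by −0.40 and −0.30 and Afg3l2 by 0.39 and 0.33. All of these values exceed the spot noise of 0.05. Among genes measured on both arrays, 33.9% differed by more than Tfam in size without palmitate and 40.8% with it. Its own palmitate response was −0.11 in control and 0.01 in Drp1LiKO.

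Polg, the catalytic subunit of the mitochondrial DNA polymerase, read 1.91 in control, 1.88 in Drp1LiKO, 1.81 in control with palmitate and 1.75 in Drp1LiKO with palmitate. The genotype differences of −0.03 and −0.06 lie at the spot noise, and its 3 probes were all lower with palmitate, by 0.01 to 0.10 in control and 0.12 to 0.15 in Drp1LiKO. Ssbp1 read 3.45, 3.34, 3.59 and 3.42 in the same order. Both of its bright probes were lower in Drp1LiKO, at −0.11 and −0.18 untreated, and higher with palmitate, at 0.14 and 0.11 in control and 0.08 and 0.24 in Drp1LiKO. A further Ssbp1 probe, on transcript ENSMUST00000141801, was not well above background in control, Drp1LiKO or control with palmitate and read −3.45 in Drp1LiKO with palmitate. Against the lowest level that the other arrays could show, it was at least 2.81-fold higher there than in untreated Drp1LiKO and at least 1.65-fold higher than in control with palmitate. A signal on 1 probe and 1 array has no second reading behind it.

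**Figure D2:**
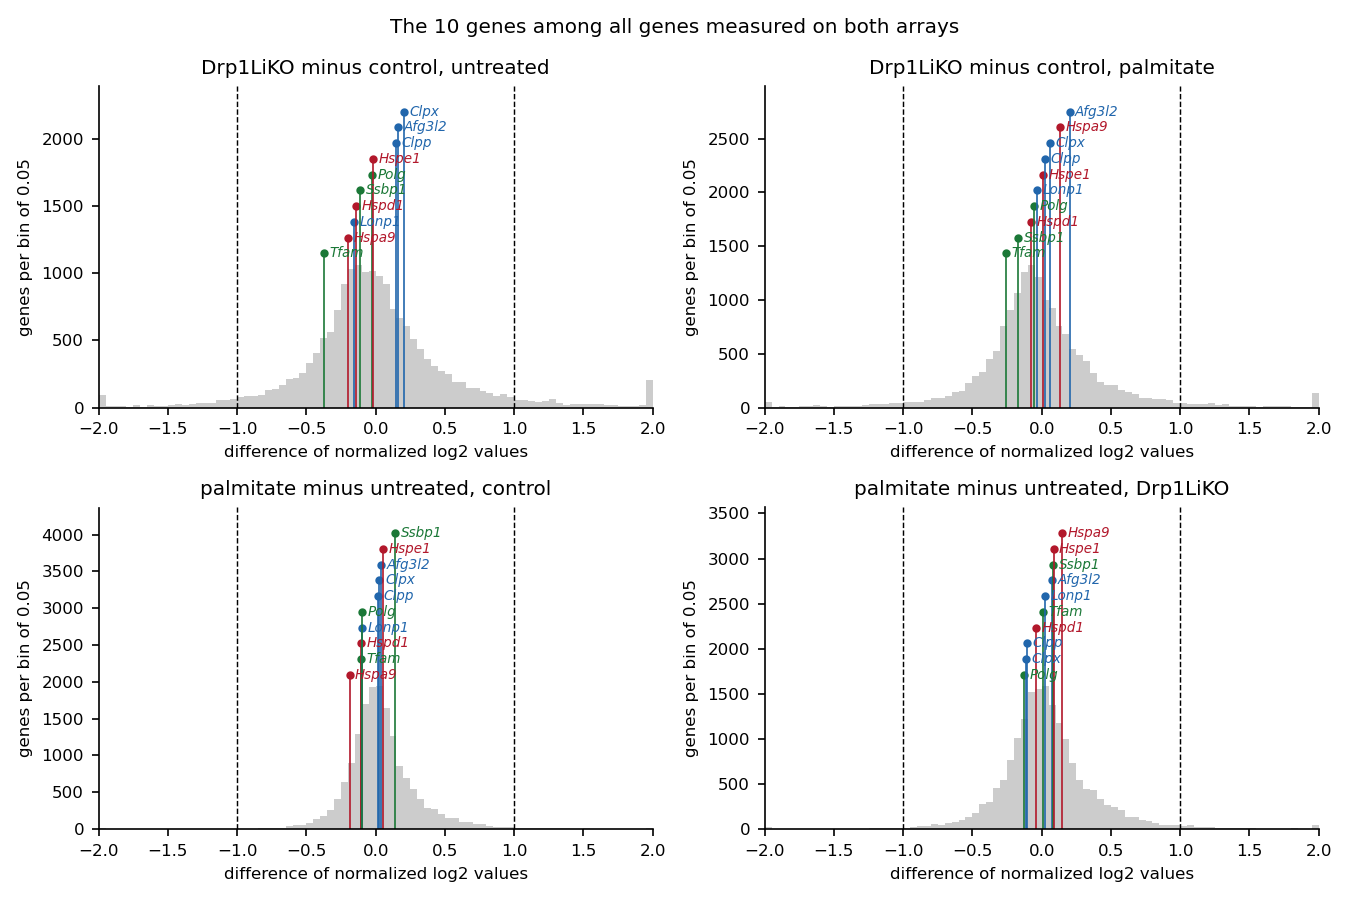
Difference of normalized log2 values (x axis) for all genes measured on both arrays (grey, genes per bin on the y axis; the end bins also hold values beyond the axis) in the 4 comparisons of 2 arrays. Lines mark the 10 genes, in red for chaperones, blue for proteases and green for DNA maintenance, at heights set apart to keep the names legible; dashed lines are 2-fold. All 10 lie between −0.38 and 0.20, inside the bulk of genes.

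As a list, 0 of 10 genes passed 2-fold between untreated Drp1LiKO and control, where 14.4% of all genes tested did. The corresponding background was 11.5% for the genotype difference with palmitate, 5.70% for the palmitate response of control and 7.04% for that of Drp1LiKO, and again 0 of 10 passed. Because the 10 are well above background on every array, genes measured on both arrays are the closer background, and of these 7.81%, 5.56%, 1.11% and 2.42% passed 2-fold in the same order. In all 4 comparisons 0 of 10 lies near that share. At 1.5-fold it was 0 of 10 against 19.6%, 14.3%, 4.92% and 8.49%.

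The median of the 10 genes was −0.07 for the genotype difference without palmitate and −0.01 with it, where the median over all genes measured on both arrays was −0.04 and −0.05. For the palmitate response it was −0.04 in control and 0.02 in Drp1LiKO, against 0.02 and 0.01 over all genes. In number, 3 genes read higher and 7 lower in untreated Drp1LiKO, and 5 and 5 with palmitate. The palmitate response of Drp1LiKO minus that of control ranged from −0.14 for Clpx to 0.34 for Hspa9 with a median of 0.04. In this difference 0 of 10 passed 2-fold. Of the 20615 genes well above background on at least 1 array 10.8% did, a wider background that includes dim probes.

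Over all 4 arrays, a limma fit with genotype and palmitate as terms left 1 residual degree of freedom. Its SE and p rest on how alike the genotype difference was untreated and with palmitate, plus array noise. They do not measure how far animals or cultures of one genotype vary. The genotype effect on Tfam was −0.32 ± 0.08 (SE) with a limma adjusted p of 0.193, and that on Afg3l2 was 0.18 ± 0.07 with 0.275. For the other 8 genes the adjusted p of the genotype effect ranged upward from 0.347, and for palmitate all 10 lay at or above 0.581. The fit called 0 of 20615 genes (0.00%) for genotype and 0 for palmitate (0.00%), while 26.0% and 9.68% of genes had an unadjusted p under 0.05, and no member did for either term. With 1 residual degree of freedom an empty list of calls does not show that genes did not differ. With an intensity trend in the variance the same Tfam effect had an adjusted p of 0.0337, in a fit that called 5354 genes (26.0%) for genotype, so the call on Tfam depends on the variance model.

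The wider machinery was read from lists of related genes, all of them measured on all 4 arrays. Of 14 further mitochondrial chaperones and import motor genes, 0 passed 2-fold in any comparison, and their median genotype difference was −0.03 untreated and −0.06 with palmitate. Grpel2, a nucleotide exchange factor for Hspa9, stood highest at 0.91 and 0.73, with levels of 2.95, 3.85, 2.97 and 3.70 in control, Drp1LiKO, control with palmitate and Drp1LiKO with palmitate. Grpel1, the other exchange factor and chosen after its values were seen, read lower in Drp1LiKO, by 0.19 and 0.11. The lowest were Dnlz, an escort of Hspa9, at −0.44 untreated and −0.28 with palmitate, and Dnajc19, an import motor subunit, at −0.22 and −0.32, though a dim further probe of Dnajc19 gave 0.08 with palmitate.

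Of 14 further mitochondrial proteases, 0 passed 2-fold either, with median genotype differences of −0.01 and −0.09. Oma1, the stress-activated inner membrane protease, read −1.45, −1.92, −1.34 and −1.78, lower in Drp1LiKO by 0.46 and 0.44. Xpnpep3, an aminopeptidase, was the highest at 0.60 and 0.49 on a dim probe. Afg3l1, the m-AAA partner of Afg3l2 in mice and chosen here after its values were seen, read 3.19, 2.76, 3.06 and 3.15, so that it stood 0.43 lower in untreated Drp1LiKO and 0.09 higher with palmitate. For this genotype difference its 4 probes gave −0.58 to −0.08 untreated. Under palmitate 3 of the 4 read higher in Drp1LiKO than in control, by 0.09 to 0.13.

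Of 26 further genes for mitochondrial DNA replication, transcription and the nucleoid, 0 passed 2-fold, 15 read lower and 11 higher in untreated Drp1LiKO, and the median was −0.07 untreated and −0.06 with palmitate. Mgme1, an exonuclease that trims replicating mitochondrial DNA, was the lowest, with levels of −1.84, −2.80, −1.80 and −2.64 and differences of −0.96 and −0.84, just short of 2-fold. Tfb2m, Tfb1m and Polrmt were chosen after their values were seen, as genes that act in mitochondrial transcription or beside it. So were Tefm and the Mterf genes of the list. Tfb2m, which opens the mitochondrial promoter beside Tfam, read 0.87, 0.25, 0.69 and 0.12, lower by 0.62 and 0.57. Tfb1m, its relative, was lower by 0.35 and 0.41, and Polrmt, the mitochondrial RNA polymerase, by 0.20 and 0.13. Tefm, the elongation factor of that polymerase, differed by −0.06 and 0.18. The Mterf genes had no common direction. Mterf1a differed by 0.30 and 0.08, Mterf2 by 0.59 and 0.16, Mterf3 by 0.04 and −0.18, and Mterf4 by −0.56 and −0.08. Primpol, a repriming enzyme, was the highest untreated at 0.79 and read 0.06 with palmitate, on a dim probe. A dimmer probe of Primpol, well above background on 3 arrays, gave 0.69 and 0.64. Another, well above background on 1 array, gave 0.30 and −0.17, so the difference with palmitate depends on the probe. Top1mt, the mitochondrial topoisomerase, read 0.21 untreated and was the highest with palmitate at 0.30.

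Among 12 nuclear regulators of mitochondrial genes, 1 (8.33%) passed 2-fold by genotype in each condition. Of all genes measured on both arrays, 7.81% did so untreated and 5.56% with palmitate, so the count lies near the background. In untreated Drp1LiKO 10 of the 12 read higher and 2 lower, with a median of 0.11. With palmitate 9 read higher and 3 lower, with a median of 0.25. Ppargc1a, the coactivator PGC-1α of mitochondrial biogenesis, read −1.87 in control, −0.65 in Drp1LiKO, −1.79 in control with palmitate and −0.52 in Drp1LiKO with palmitate. It was higher in Drp1LiKO by 1.21 and 1.27, and its second probe gave 2.05 and 1.14, while its palmitate response was 0.08 and 0.14. Atf5, a regulator of the mitochondrial unfolded protein response, read 7.30, 6.74, 7.14 and 7.17. It was lower in Drp1LiKO without palmitate, by 0.56 on one probe and 0.71 on the other, and the difference with palmitate was 0.03 on both. Gabpa, the DNA-binding subunit of GABP, was lower by 0.06 and 0.26 on its brightest probe, and by 0.57 and 0.54 on another. A further probe of Gabpa gave −0.11 and −0.15. No member moved by 2-fold beside these regulators, and the motif letters named above were not set against any binding data.

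**Figure D3:**
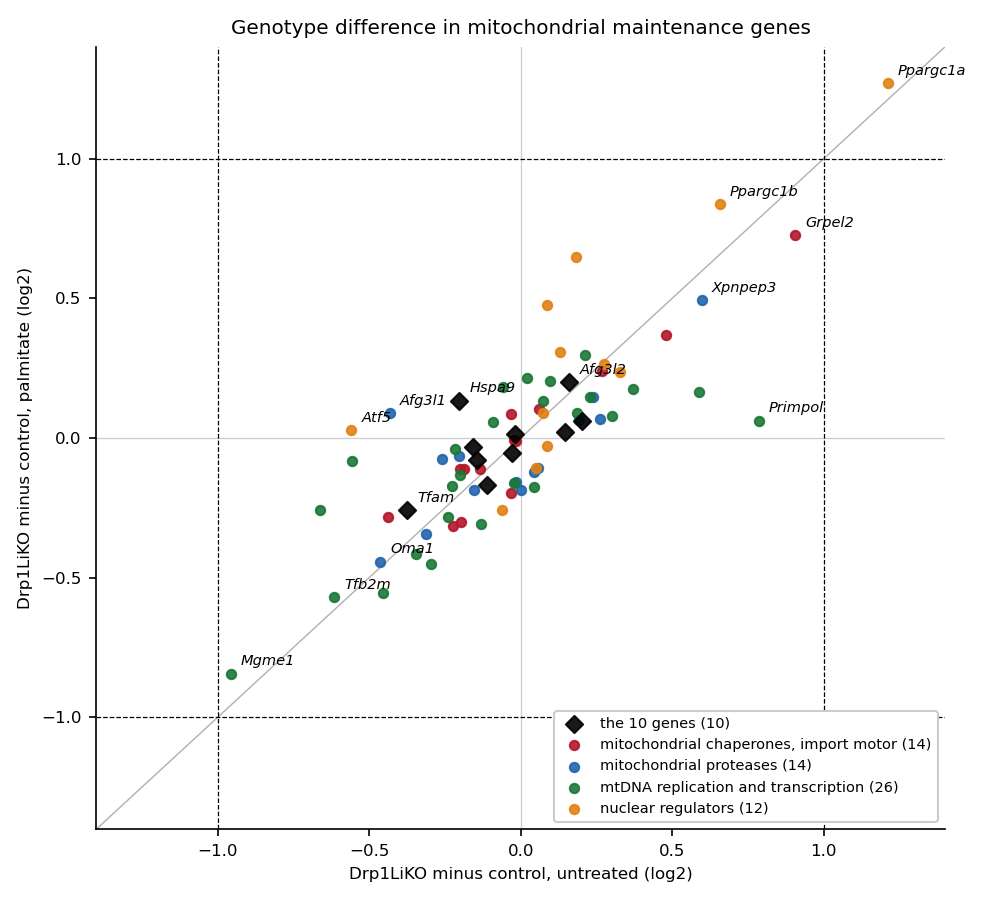
Drp1LiKO minus control in normalized log2 units, untreated (x axis) against palmitate (y axis), for the 10 genes (black diamonds) and 4 lists of related genes (coloured circles, number of genes in the legend; 1 array per group). The grey line marks equal differences and dashed lines 2-fold. The 10 genes cluster near 0 with Tfam at the lower left, Ppargc1a lies past 2-fold on both axes, and Mgme1 and Grpel2 lie just short of it.

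The palmitate response was then read by compartment. In control hepatocytes Hspa1a read −1.48 untreated and 3.33 with palmitate, a difference of 4.80, and in Drp1LiKO it read −0.34 and 3.50, a difference of 3.83. Hspa1b rose from −0.25 to 2.91 in control and from −0.35 to 2.74 in Drp1LiKO, by 3.16 and 3.09. Their sequences are nearly identical and a probe of either may read both, so they are best taken as a pair. Of 16 cytosolic heat shock proteins these 2 passed 2-fold in each genotype. Of all genes measured on both arrays, 1.11% did so in control and 2.42% in Drp1LiKO. The list median was 0.19 in control and 0.07 in Drp1LiKO. Bag3, a cochaperone of HSP70, was chosen after its values were seen and read higher by 0.55 and 0.58. At the low end was Hspa4l, at −0.10 and −0.19. Its other probes gave −0.22 and −0.15 in control and −0.20 and −0.25 in Drp1LiKO, but a dim one gave 0.94 and 0.40. Between genotypes 1 of the 16 (6.25%) passed 2-fold, Hspa1a in untreated cells at 1.14, where 7.81% of genes measured on both arrays did. With palmitate Hspa1a differed by 0.17. Hspa1b differed by −0.10 untreated and −0.17 with palmitate, so the genotype difference of the pair depends on the probe. Hsp90aa1 was the lowest untreated at −0.38 and Hspb1 the lowest with palmitate at −0.37, where Hspb8 was the highest at 0.18.

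Hspd1 and Hspe1, whose shared promoter carries the longer run of exact heat shock letters, differed far less. Imperfect units were not counted in either promoter, and a relation between such letters and the response was not tested. Hspd1 differed by −0.11 in control and −0.04 in Drp1LiKO with palmitate, and Hspe1 by 0.05 and 0.09. On their brightest probes both chaperonin genes thus read within 0.11 of their untreated level, beside rises of 3.09 or more in Hspa1a and Hspa1b. Other probes of the pair reached 0.22 for Hspd1 and 0.29 for Hspe1, in Drp1LiKO.

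Of 14 endoplasmic reticulum chaperones, 0 passed 2-fold in any of the 4 comparisons. In the order of the comparisons that follow, 9, 10, 12 and 13 of the 14 read higher and the others lower. Their median was 0.31 for the genotype difference untreated, 0.28 with palmitate, 0.17 for the palmitate response of control and 0.30 for that of Drp1LiKO, where the medians over all genes measured on both arrays were −0.04, −0.05, 0.02 and 0.01. The markers of other liver cells also differed by genotype, and their part in these values was not tested. Hyou1, a large HSP70-like chaperone, stood highest between genotypes at 0.78 and 0.99 on a dim probe. Its other probes gave 0.42 and 0.50 untreated and 0.62 and 0.55 with palmitate, so its place depends on the probe. Dnajb9 led the palmitate response of control at 0.79, and Sdf2l1 that of Drp1LiKO at 0.61. Dnajc3 was the lowest between genotypes, at −0.58 and −0.39, and with palmitate in control at −0.18, and Dnajb11 was the lowest with palmitate in Drp1LiKO at −0.01. Medians of the 10 mitochondrial genes in the same comparisons lay between −0.07 and 0.02.

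**Figure D4:**
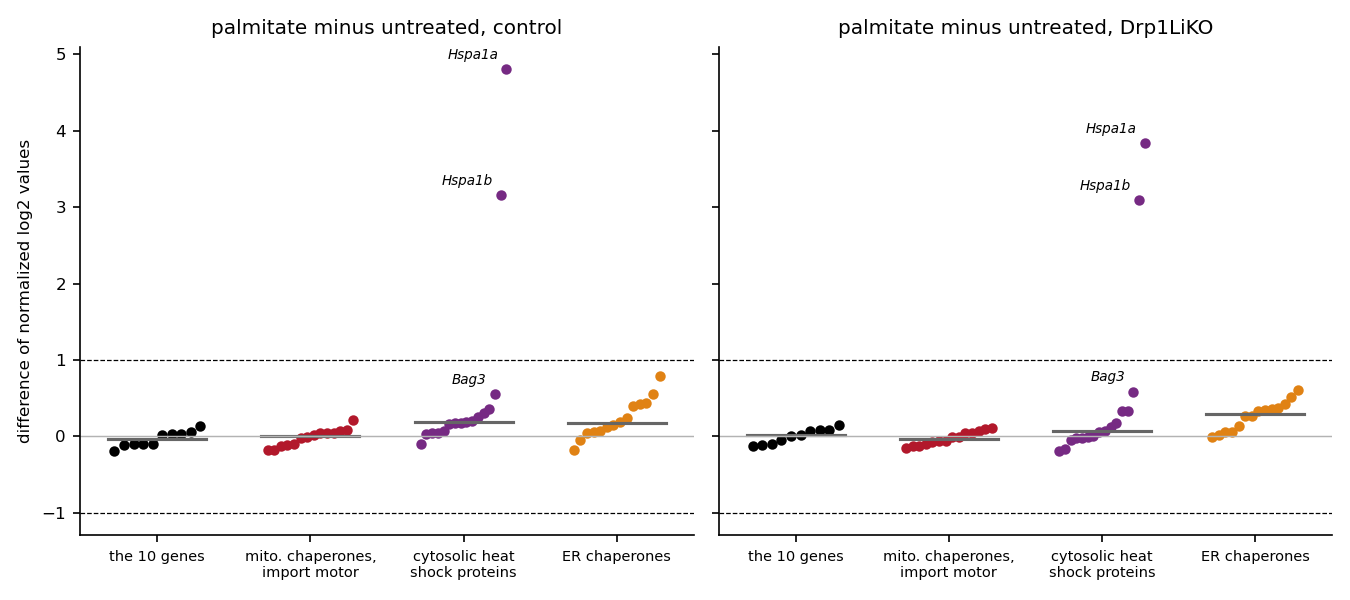
Palmitate minus untreated in normalized log2 units (y axis) for each gene of 4 lists (x axis, sorted within a list), in control (left) and Drp1LiKO (right) hepatocytes, with 1 array per group. Grey bars are list medians and dashed lines 2-fold. Hspa1a and Hspa1b stand at 3.09 to 4.80, and all 10 mitochondrial genes lie between −0.19 and 0.15.

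Genes with the most similar pattern were sought over 16610 genes measured on all 4 arrays, by the root mean square distance of values centred on each gene's mean over 4 arrays. Nearest to Hspd1 were Trp53rka, ENSMUST00000117498, Otub2, Sharpin and Npw, at distances of 0.001 to 0.008. Of the other members, Lonp1 came closest at rank 127 and Polg at rank 714, and Hspe1, the partner of Hspd1 on the shared promoter, ranked 3492. Nearest to Tfam were ENSMUST00000199493, Dchs1, Il11ra1, Irf2 and Phf5a, at 0.008 to 0.011. With 4 arrays such a likeness describes these arrays only.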

How the data were processed

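RNA of the 4 groups was labelled with 1 dye and hybridised to a mouse 60-mer oligonucleotide array, 1 array per group. Per the file headers, the intensity values were extracted, background-subtracted and detrended within each array by Feature Extraction 10.7.1.1 before they were deposited, with no scaling between arrays. The submitters' processing notes name version 9.5.1.1 of the same program. A second table from the authors holds intensities processed further, with nearly the same distribution in its 4 columns, and was used as an alternative on the log2 scale. The labels and the methods name different RNA kits.

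The processed signal was taken to log2, and the 75th percentile of all non-control spots (424 to 542 in intensity) was subtracted per array. Spots flagged as outliers (47 to 71 per array) were left out, and probes printed several times entered as the mean of their spots. Saturated spots numbered 0 on every array. A gene was represented by its brightest probe well above background on at least 1 array, and counted as past the fold at a 2-fold difference with its probe well above background on at least 1 of the arrays compared. Precision is limited by the number of arrays.

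Groups came from the labels. An additive fit of genotype and palmitate used limma 3.58.1 under R 4.3.3 (lmFit, eBayes, two-sided, Benjamini-Hochberg, threshold 0.05), after a run on simulated data. Alternatives were the normexp background (offset 50), the deposited table, other scaling, probe and filter choices, 1.5-fold, and an intensity trend. The 10 genes and the gene lists were chosen with earlier results of these data known. Named beside the 10 were, from each related list, the genes past 2-fold on both arrays and the highest and lowest genotype difference. For the cytosolic and endoplasmic reticulum lists they were the highest and lowest in each comparison. Probe positions in the files are on mm9, whereas the promoter windows are on GRCm38.p6, and the builds were not mixed. Sequences come from RefSeq.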

Additional observations from a re-analysis of the deposited data

Results flagged for a closer look

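For Hspa9 the palmitate response was −0.19 in control and 0.15 in Drp1LiKO hepatocytes, so that the arrays of the genotypes moved in opposite directions by more than the spot noise. In the same way the genotype difference of Hspa9 was −0.20 untreated and 0.13 with palmitate. The second probe of Hspa9 gave −0.13 and −0.29 for the palmitate responses and 0.36 and 0.20 for the genotype differences, with one sign in each case. For Atf5 the palmitate response was −0.16 in control and 0.42 in Drp1LiKO, and its second probe gave −0.17 and 0.57. With 1 array per group the difference of these responses was not tested.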

How the results depend on the processing

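Under the alternatives, 0 of the 10 genes passed the fold in any comparison of 2 arrays, with 1 exception. With the mean over all probes of a gene, Ssbp1 passed 2-fold in the palmitate response of Drp1LiKO (1 of 10), since its dim probe on that array enters the mean. Of 320 alternative values of single genes in these comparisons, 14 changed sign. Of the 320, 302 differed from the main value by less than the spread between probes. Many of these 302 repeat the main value by construction, since the 10 genes were well above background on every array. Filter choices, dim values raised to the floor and the 1.5-fold threshold could not change their values. Moves beyond the spread came from the mean over probes (13), the deposited table (3) and the normexp background (2). Those with the deposited table were genotype differences. Hspd1 moved to −0.03 untreated, and Lonp1 to −0.04 untreated and to 0.03 with palmitate, which turned its sign. The genotype difference of Tfam ran from −0.40 to −0.34 untreated and from −0.30 to −0.24 with palmitate, and that of Afg3l2 from 0.15 to 0.39 and from 0.20 to 0.33. Counts over all genes depended on the filter. Past 2-fold in the order genotype untreated, genotype with palmitate, palmitate in control and palmitate in Drp1LiKO, there were 2867, 2176, 1070 and 1390 genes. With the normexp background they were 1048, 687, 311 and 408, and with probes well above background on both arrays 1378, 933, 186 and 432. With no filter on dim probes they were 4680, 3936, 2888 and 3531, and at 1.5-fold 5297, 3989, 1987 and 2792. With dim values raised to the floor the palmitate counts were 655 and 900. For the difference of the palmitate responses the count was 2225, and 533 with the normexp background.

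In the limma fit, the genotype term called 0 genes in the main setting, 1531 with the normexp background, 2586 over genes detected on all 4 arrays, and 5354 with the intensity trend, which called 1 of the 10 genes, Tfam. The palmitate term called 0 genes, and 186 with the trend. The genotype effect of Hspe1 turned from −0.0033 to 0.023 with the normexp background and to 0.050 with the deposited table, and that of Hspa9 turned from −0.034 to 0.015 with the deposited table, all within 1 SE of 0. The cause of these changes was not tested. No paired analysis was possible because the labels give 1 array per group and so no second pair by number. The fit does compare the genotypes within each slide, since its palmitate term is also the slide. Probes near background carry only a bound.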
